A study of Mus musculus with 32 samples.

Results

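The liver makes most of the proteins of complement and blood clotting, and most of the inhibitors that hold their proteases in check. Their transcripts were followed here in the liver of old male mice kept on a control diet, on a long or a short calorie restriction, or on the control diet with an added drug or soy isoflavones. The members were the probe sets of an Affymetrix mouse array (MG-U74Av2) whose single gene symbol on the platform matched 1 of 12 patterns: the complement components other than the C1q chains, the lettered complement factors, C4b-binding protein, the numbered clotting factors, protein C, the fibrinogen chains, plasminogen, kininogen, the mannose-binding lectins and their proteases, the heavy chains of inter-alpha-trypsin inhibitor, and all serpins. The rule used names alone and no measured value. It took 68 of the 12422 probe sets that were not controls, for 54 genes. Of these, 54 probe sets of 44 genes passed the filter on low intensity and were tested. The other 14 probe sets lay at a mean of 94.0 or lower on the deposited intensity scale. They were the only probe sets of 10 genes: the tissue factor gene F3, Serpina5, 6 of the 8 clade B serpins (Serpinb1a, Serpinb2, Serpinb3a, Serpinb5, Serpinb6c and Serpinb9e), the collagen chaperone Serpinh1, and Serpini1. C3, Cfd, F11 and Serpina3k were not analysed here, since no probe set with one of these as its only symbol entered the rule.

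All animals were male B6C3F1 mice, the first-generation cross of C57BL/6 and C3H, and each of the 8 groups had 4 arrays, 1 mouse per array, 32 in all. Control mice (CON) ate 93 kcal per week. Long-term calorie restriction (LTCR) gave 52.2 kcal per week from 5 months of age. Short-term restriction (CR8) began at 20 months, with 77 kcal per week for 2 weeks and then 52.2 kcal per week for 6 weeks. The remaining mice ate the control diet for 8 weeks from 20 months with an additive, at doses not given in the sources used here. MET mice received metformin, which lowers hepatic glucose output, GLIP mice glipizide, which raises insulin secretion, and GM mice the pair of them. ROS mice received rosiglitazone, an agonist of PPAR gamma, and SOY mice an isoflavone extract of soy. Every mouse was killed at 22 months after 48 hours without food, so the control values are those of fasted old animals. All 7 comparisons against CON share the same 4 CON arrays, and each comparison is given by its own values.

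Complement is a cascade of plasma proteases that marks and perforates foreign cells. The lectin and classical pathways start it, C4b-binding protein and factor I stop it in the fluid phase, and C6 to C9 with their partner chains build the pore. Clotting is a second cascade, in which factors of the contact and tissue factor pathways activate factor X, factor X activates prothrombin, and thrombin turns fibrinogen into fibrin. The serpins, named for serine protease inhibition, and the inter-alpha-trypsin inhibitor chains limit both cascades and the proteases of inflammation, although some serpins only carry hormones. Several genes in these families are acute phase genes, whose hepatic transcription rises in inflammation under interleukin-6.

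The deposited intensities had been scaled to one trimmed mean of 500.4 to 500.5 on every array, and they were analysed as log2(intensity + 27), so changes of dim transcripts are understated. Hepatocyte transcripts dominated every sample: the sum over 9 hepatocyte genes was 139900 to 154000 in CON, 166300 to 195100 in LTCR and 165900 to 173800 in MET. The sum over 11 Kupffer cell and macrophage genes was 4436 to 5472 in CON, 2664 to 4095 in LTCR and 2729 to 4305 in CR8, with Marco below the added value of 27 throughout. In whole liver RNA, fewer cells of a type and less RNA per cell cannot be told apart. Skeletal muscle transcripts exceeded 3 times their median sum on 5 arrays (CON replicate 3, CR8 replicates 1 and 2, ROS replicate 4 and SOY replicate 3). Acute phase transcripts outside the member list were high on 3 arrays (GM replicate 3, ROS replicate 2 and SOY replicate 2). The part that these values have in the results below was not tested. Calls lost without such arrays are named below, with examples of calls added without the 3 acute phase arrays.

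**Figure D1:**
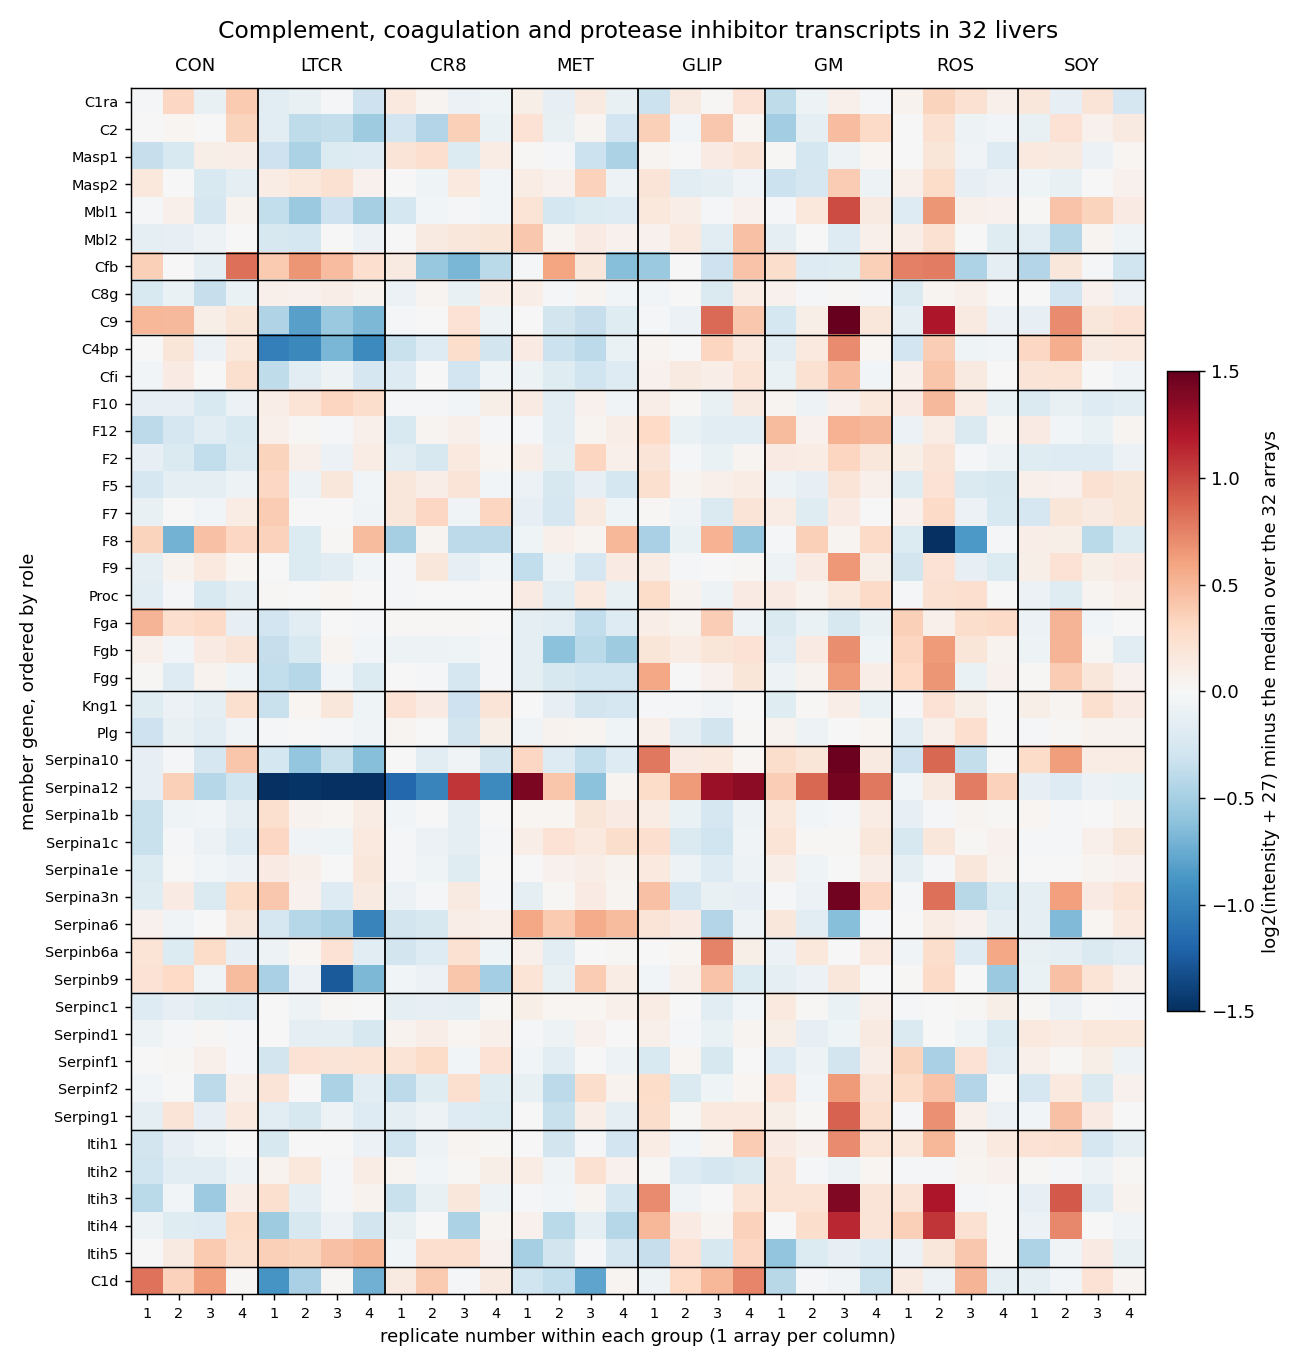
Levels of the 44 tested member genes (rows, ordered by role) on the 32 arrays (columns, by group). The colour gives log2(intensity + 27) minus the gene's median over all arrays, with the colours ending at -1.5 and 1.5. The LTCR columns are low for C4bp, C9 and Serpina12. ROS replicate 2 is the highest array of its group for 30 of the genes, GM replicate 3 for 25 and SOY replicate 2 for 20. CON replicate 4 and GLIP replicate 1 are so for 22 each, and MET replicate 1 for 21. The same counts were not taken over all probe sets.

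Long-term restriction was the comparison with the most member calls. Of the 54 members tested, 15 passed an adjusted p of 0.05 (27.8%), against 19.3% of all 7357 probe sets tested. The members rose in 6 cases and fell in 9, where 7.53% of all probe sets rose and 11.8% fell. Their median change was 0.01 on the log2 scale, and that of all probe sets was 0.00. These calls belong to 14 genes: C4bp, Cfi, C9, Fga, Serpina6, Serpina12, Serpinb9 and C1d fell, and C8g, F2, F10, F12, Serpina1b and Itih2 rose. Without CON replicate 1 the count was 9 (16.7%, beside 16.5% of all probe sets). Without the 5 arrays with muscle transcripts it was 11 (20.4%, beside 15.1%). The calls then lost were those of Cfi (-0.32, adjusted p = 0.0625), Fga (-0.33, adjusted p = 0.114), C8g (0.22, adjusted p = 0.0935) and the second probe set of Serpina6 (-0.48, adjusted p = 0.0705). Called shares differed by brightness. Below a mean intensity of 1000, with 14 members, 4.68% of all probe sets rose and 10.66% fell. From 1000 to 5000, with 15 members, 12.91% rose and 16.81% fell. From 5000 to 15000, with 16 members, it was 28.57% and 10.2%, and above 15000, with 9 members, 33.33% and 4.94%. Whether members exceed probe sets of like brightness was not tested.

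Metformin changed 5 members, 2 up and 3 down, where 4.17% of all probe sets passed (1.83% up and 2.34% down). The member median was -0.04 and that of all probe sets -0.03. Fga, Fgb and C1d fell, and Itih2 and Serpinc1 rose. No metformin call was left without CON replicate 1 (beside 2.12% of all probe sets), CON replicate 3 (2.35%) or the 5 arrays with muscle transcripts (1.29%). Without those 5 arrays the adjusted p of the 5 members ran from 0.0931 to 0.137. The count was 1 without MET replicate 3 (2.65% of all probe sets) and 2 without MET replicate 4 (2.7%). It was 3 without CON replicate 2 (3.17%), CON replicate 4 (1.9%) or MET replicate 1 (2.94%). Without GLIP replicate 1, which enters through the shared estimate of spread, it was 8. By the same ranges of mean intensity, 0.68%, 3.76%, 9.86% and 18.52% of all probe sets rose and 2.06%, 3.05%, 4.76% and 0.0% fell.

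Metformin with glipizide raised 2 members, F12 and F2, against 1.55% of all probe sets called (0.87% up and 0.68% down). The member median was 0.12 against -0.05. By the same ranges of mean intensity, 0.38%, 1.91%, 5.1% and 1.23% of all probe sets rose and 0.66%, 0.78%, 0.68% and 0.0% fell. Without CON replicate 3, GM replicate 1 or GM replicate 4, 1 call was left, beside 0.884%, 0.408% and 0.381% of all probe sets. Without GLIP replicate 1 there were 4. Without the arrays with muscle transcripts F2 was not called (0.37, adjusted p = 0.0836). With arrays scaled to equal medians 14 members rose and none fell, where 5.8% of all probe sets passed.

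No member passed the threshold in the other comparisons with controls. CR8 called 0.544% of all probe sets, GLIP 0.136%, ROS 0.136% and SOY 0.0%. At an unadjusted limma p under 0.05 the members numbered 6 of 54 in CR8, 7 in GLIP, 13 in ROS and 9 in SOY, where 11.6%, 9.37%, 8.41% and 8.17% of all probe sets passed. Their medians were -0.02 in CR8, 0.08 in GLIP, 0.09 in ROS and 0.07 in SOY, beside -0.02, 0.00, 0.00 and -0.03 for all probe sets.

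Set directly against the short restriction, the long one lowered 5 members and raised none, where 12.0% of all probe sets passed (4.65% higher and 7.34% lower). These were Serpina12, C4bp, C1d, Masp1 and Serpind1. The count was 2 without CR8 replicate 2 or LTCR replicate 4, 3 without CR8 replicate 3 or LTCR replicate 1, 7 without ROS replicate 2 (2 higher and 5 lower), and 9 without the 3 arrays with high acute phase transcripts. Without the arrays with muscle transcripts, 2 of them among the CR8 arrays, Serpina12 and C4bp alone were called, 3.7% of the members beside 5.75% of all probe sets.

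The combination against metformin alone gave 4 calls, 2 in each direction, where 2.62% of all probe sets passed (1.3% higher and 1.32% lower). They were Fgb and F12, both higher, and both probe sets of Serpina6, lower. By the same intensity ranges, 0.77%, 2.84%, 4.42% and 0.0% of all probe sets were called higher and 1.01%, 2.27%, 2.04% and 3.7% lower. No call was left without GM replicate 3 (beside 1.28% of all probe sets), and 2 without GM replicate 4 (1.43%). The count was 1 without GM replicate 2 (1.47%) or MET replicates 2, 3 or 4 (1.35%, 2.17% and 1.81%). Without the arrays with muscle transcripts, Fgb (adjusted p = 0.0609) and the second probe set of Serpina6 (adjusted p = 0.0786) were lost. The combination against glipizide alone gave no member call and 0.0% of all probe sets, with 5 of 54 members and 9.18% of all probe sets at an unadjusted limma p under 0.05. Over all 8 groups, the F test called 21 of the 54 members (38.9%), and 27.0% of all probe sets, shares that were not split by brightness. The lowest adjusted p of that test belonged to Serpina12 (6.35e-05) and C4bp (6.39e-05), followed by F12 (0.00264) and Serpina6 (0.00294).

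Among the genes that start complement, none of the 6 tested in the lectin and classical pathways passed against controls. C2, which supplies the protease of the classical and lectin convertase, measured 1389, 1201, 1217 and 1074 in LTCR and 1567, 1602, 1568 and 1978 in CON. All LTCR arrays lay below all CON arrays, with a log2 difference of -0.45 and an adjusted limma p of 0.0571. Mbl1, one of the mannose-binding lectins that recognise microbial sugars, measured 654 to 784 in LTCR and 817 to 1035 in CON, also without overlap (-0.40, adjusted p = 0.0858). The other lectin, Mbl2, measured 2669 to 3214 and 2903 to 3194, and these ranges overlapped. C1ra, a protease of the classical C1 complex, and Masp2, a lectin-bound protease, passed in no comparison of a pair of groups.

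Masp1, the protease bound to those lectins, was called only between the restrictions. It measured 886, 782, 953 and 963 in LTCR and 1264, 1318, 948 and 1189 in CR8. The long restriction was lower by 0.38 on the log2 scale (SE 0.12, adjusted p = 0.0339), but CR8 replicate 3 lay inside the LTCR range. The call was lost on leaving out any 1 of 5 of the 8 arrays, and without the arrays with muscle transcripts the difference was -0.24 (adjusted p = 0.33). Against CON, Masp1 differed by -0.20 in LTCR (adjusted p = 0.256) and 0.18 in CR8 (adjusted p = 0.604). Cfb, which forms the alternative pathway convertase, was dim in all groups, at 90.1 to 307 over the 32 arrays. Its values in LTCR (198 to 271) lay above those in CR8 (90.1 to 180), and the difference of 0.82 missed the threshold (adjusted p = 0.0506).

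The largest complement change was in C4bp, the plasma cofactor that helps factor I destroy C4b. C4bp measured 6429, 7312, 6035 and 7191 in CON, and 3135, 3272, 3991 and 3311 in LTCR. Every LTCR array lay below every array of each other group, the lowest of which was 4869 in MET replicate 3. C4bp fell by 0.97 on the log2 scale (SE 0.16, adjusted p = 6.03e-05), to 0.510 of its control level, and the change stayed between -1.05 and -0.93 when any 1 array was left out. Short restriction gave 5076, 5614, 7731 and 5290, which straddled the control range (-0.20, adjusted p = 0.693). The long restriction was lower than the short one by 0.77 (SE 0.16, adjusted p = 0.00163).

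The stretch before an annotated start of C4bp is shown because its fall had the lowest adjusted p of the members under long restriction. It is the 150 bases upstream of that start, chr1:130661619-130661768 on the minus strand of GRCm38.p6, from RefSeq, printed 5′ to 3′. The annotated gene reaches base 130661657, so the start used here lies inside the gene and the stretch partly overlaps it. Capitals mark a match to GTTAATNAT, the letters of a core HNF1 motif. HNF1 is a transcription factor of hepatocytes. The match begins 64 bases before the start used here.
C4bp: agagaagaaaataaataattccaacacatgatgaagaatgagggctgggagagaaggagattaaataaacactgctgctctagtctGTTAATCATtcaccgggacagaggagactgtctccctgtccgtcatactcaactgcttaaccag
On either strand, these letters occur in the 250 bases upstream of the start in 0.737% of 32851 windows of 27025 genes. Windows were found for 43 of the 54 member genes (46 windows), of which 2 held the match, those of C4bp and Fga. A match describes the sequence and is not a measured site.

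Cfi, the protease that cleaves C3b and C4b together with such cofactors, also fell. It measured 7768, 9083, 9568 and 8498 in LTCR and 9824, 11052, 10156 and 11927 in CON, without overlap. The change was -0.30 (SE 0.10, adjusted p = 0.0408), and the call was lost on leaving out any 1 of 5 of the 8 arrays. In MET, Cfi measured 8226 to 9571, below all CON arrays, and that difference of -0.27 was not called (adjusted p = 0.148).

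The terminal components went in opposite directions. C9, which polymerises into the pore, measured 3331, 3317, 2514 and 2669 in CON and 1717, 1331, 1597 and 1464 in LTCR. The groups did not overlap, and C9 fell by 0.94 on the log2 scale (SE 0.30, adjusted p = 0.0238), to 0.523 of the control level. Leaving out 1 array moved the change between -1.01 and -0.87, and the highest adjusted p was 0.0635, without LTCR replicate 2. The call was lost on leaving out any 1 of 4 of the 8 arrays. In CR8 C9 measured 2242 to 2754 and in MET 1852 to 2358; neither difference from CON was called (-0.28, adjusted p = 0.796, and -0.51, adjusted p = 0.364). C8g, the gamma chain of C8, measured 11053, 10989, 11304 and 10953 in LTCR and 8965, 9793, 8306 and 9818 in CON. It rose by 0.27 without overlap (SE 0.08, adjusted p = 0.016).

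The 150 bases upstream of C9, chr15:6445196-6445345 on the plus strand of GRCm38.p6, are shown beside the fall because C9 also stood apart on the acute phase arrays described below. Capitals mark the letters TTNNGNAA on the minus strand, a pattern like that of C/EBP factors, which take part in the acute phase response.
C9: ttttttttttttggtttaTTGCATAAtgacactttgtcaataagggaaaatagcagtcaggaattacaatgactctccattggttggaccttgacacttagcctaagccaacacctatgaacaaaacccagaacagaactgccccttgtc
This pattern is common: 36.8% of all windows hold it, and 43.5% of the member windows do.

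**Figure D2:**
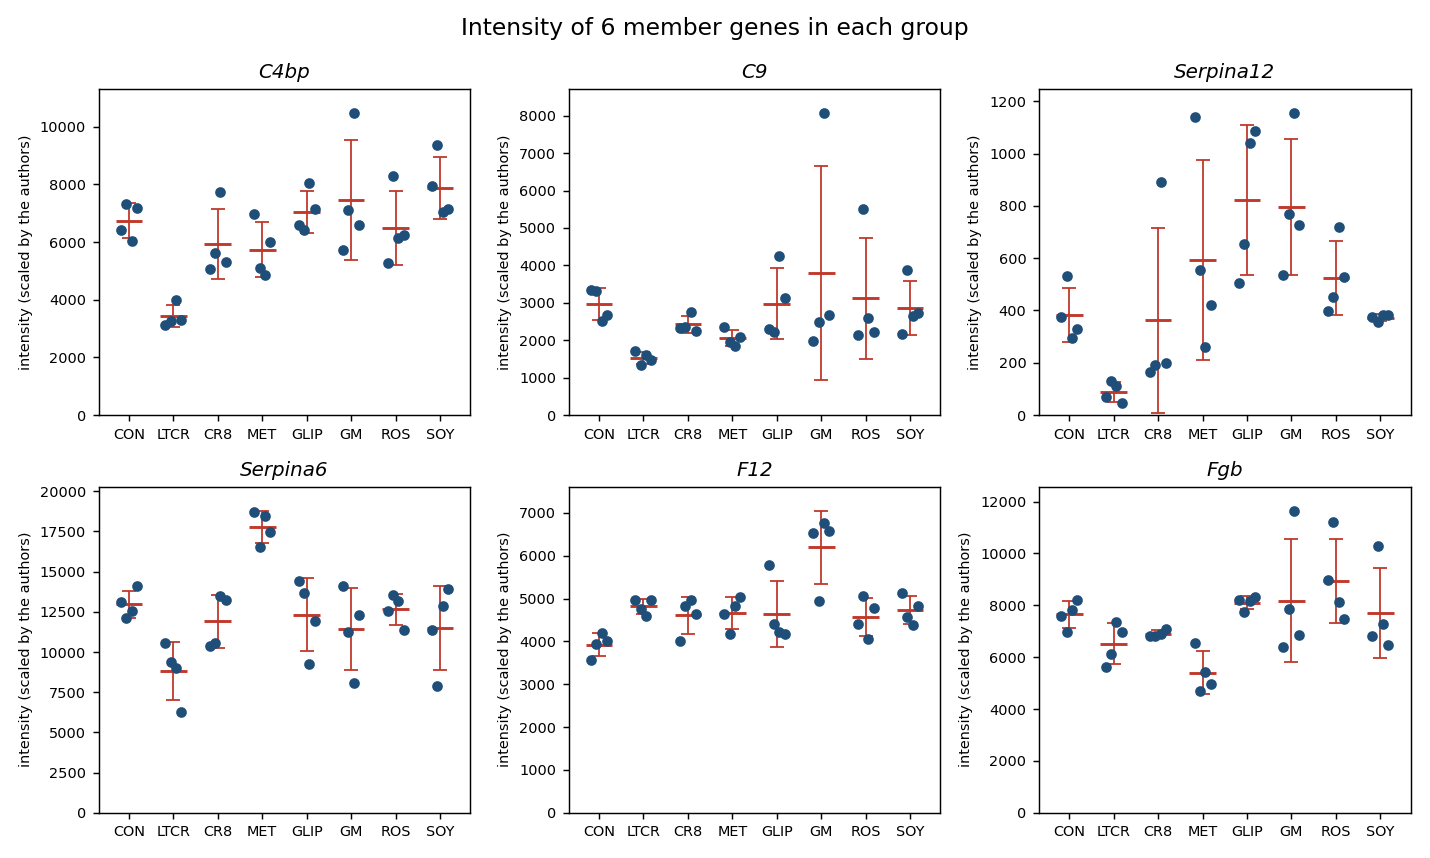
Deposited intensity (linear axis from 0) of C4bp, C9, Serpina12, Serpina6, F12 and Fgb on each array, by group; dots are arrays, and the red marks are the mean and SD of 4. C4bp, C9 and Serpina12 are lowest in LTCR, Serpina6 is highest in MET and lowest in LTCR, F12 is highest in GM, and Fgb is lowest in MET.

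The called changes of clotting factors were all rises. F12, the contact factor that starts the intrinsic pathway, measured 3564, 3932, 4202 and 4011 in CON. In GM it measured 6521, 4931, 6766 and 6570, all above the highest CON value. The rise was 0.65 (SE 0.10, adjusted p = 0.00242), or 1.56-fold, and it stayed called without any 1 array (0.60 to 0.75). When GM and CON alone were fitted, it was not called (adjusted p = 0.078). LTCR measured 4961, 4759, 4598 and 4964, again without overlap with CON (0.30, SE 0.10, adjusted p = 0.0396); that call was lost on leaving out any 1 of 6 of the 8 arrays.

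Each single drug gave a mean F12 level between those of CON and GM. MET measured 4639, 4164, 4826 and 5025 (0.25 against CON, adjusted p = 0.182). GLIP measured 5779, 4396, 4209 and 4173 (0.23, adjusted p = 0.469). The combination was above metformin by 0.40 (SE 0.10, adjusted p = 0.0291), although GM replicate 2 lay within the MET range, and the call was lost on leaving out any 1 of 4 arrays. It was above glipizide by 0.42, which was not called (adjusted p = 0.32).

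F2, the gene of prothrombin, measured 9132, 8549, 7703 and 8572 in CON, 12579, 10485, 9360 and 10810 in LTCR and 10834, 10802, 12503 and 11252 in GM. Neither group overlapped CON. The rise was 0.34 in LTCR (SE 0.10, adjusted p = 0.0124) and 0.42 in GM (SE 0.10, adjusted p = 0.0282), and the GM call was lost on leaving out any 1 of 5 arrays. In MET the difference was 0.33 (adjusted p = 0.0511), with MET replicate 2 inside the CON range.

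F10, the factor that activates prothrombin, measured 4030, 4342, 4731 and 4523 in LTCR and 3470, 3469, 3208 and 3553 in CON. It rose by 0.36 without overlap (SE 0.09, adjusted p = 0.00382), and no left-out array ended the call (0.32 to 0.40). A second probe set of F10 gave 626 to 842 in LTCR and 615 to 759 in CON, a difference of 0.11 that was not called (adjusted p = 0.582). The changes of these 2 probe sets were not tested against each other. F10 measured 5308 in ROS replicate 2 and 3516 to 4104 on the other ROS arrays (0.29 against CON, adjusted p = 0.236).

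The remaining factors passed no test against controls. F5, the cofactor of factor X, measured 5607 to 6261 in SOY, all above the CON range of 4512 to 5103 (0.28, adjusted p = 0.415). Proc, which encodes the anticoagulant protease that inactivates factors V and VIII, measured 8963 to 10475 in GM against 7340 to 8489 in CON, also without overlap (0.30, adjusted p = 0.0561). F7, F8 and F9 gave overlapping or uncalled values in every comparison, and F8, which is made mainly by endothelium, was dim at 14.9 to 164.

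The fibrinogen genes lie side by side, and their 3 chains are assembled into 1 protein in the hepatocyte. In MET, Fga measured 4069, 3987, 3471 and 3919, against 6406, 5371, 5501 and 4117 in CON. All MET arrays were below all CON arrays, the nearest pair being 4069 and 4117. Fga fell by 0.45 (SE 0.12, adjusted p = 0.0256).

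Fgb measured 6548, 4680, 5416 and 4971 in MET and 7607, 6982, 7826 and 8196 in CON, again without overlap. It fell by 0.51 (SE 0.15, adjusted p = 0.047), to 0.703 of the control level. Both falls depended on single arrays: the Fga call was lost on leaving out any 1 of 4 arrays, and the Fgb call on leaving out any 1 of 7, with changes between -0.61 and -0.44. Fgg measured 7361 to 8175 in MET and 7958 to 9410 in CON, and its difference of -0.20 was not called (adjusted p = 0.483).

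Under long restriction only Fga passed. It measured 3691, 4040, 4525 and 4407 in LTCR, and fell by 0.35 (SE 0.12, adjusted p = 0.0349), but CON replicate 4 at 4117 lay inside the LTCR range. Without CON replicate 1 the change was -0.25 (adjusted p = 0.154), and the call was lost on leaving out any 1 of 5 of the 8 arrays. Fgb differed by -0.24 (adjusted p = 0.289) and Fgg by -0.22 (adjusted p = 0.319). The intervals behind these 3 values were not set against each other, so the chains are not shown to differ.

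With both drugs, Fgb measured 6398, 7848, 11646 and 6853 in GM. It was above MET by 0.57 (SE 0.15, adjusted p = 0.0347), although GM replicate 1 lay below MET replicate 1. Without GM replicate 3 the difference was 0.39 (adjusted p = 0.152), and the call was lost on leaving out any 1 of 5 of the 8 arrays. Fga in GM measured 3797 to 4183, which is 0.05 from MET (adjusted p = 0.854) and -0.40 from CON (adjusted p = 0.0688). After quantile normalization the difference from CON was called (-0.50, adjusted p = 0.03965). Fgg in GM measured 8616 to 14124, all above MET, without a call (0.43, adjusted p = 0.1).

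The 150 bases upstream of the fibrinogen genes are shown because the chains are made in concert and yet gave different values on the acute phase arrays. They are from RefSeq on GRCm38.p6: Fga chr3:83026003-83026152 (plus strand), Fgb chr3:83049864-83050013 (minus strand) and Fgg chr3:83007574-83007723 (plus strand). Capitals mark TTNNGNAA, then GTTAATNAT on the minus strand, in Fga; CTGGGAA, the letters of a type II interleukin-6 element, then TTNNGNAA on the minus strand, in Fgb; and CTGGGAA in Fgg.
Fga: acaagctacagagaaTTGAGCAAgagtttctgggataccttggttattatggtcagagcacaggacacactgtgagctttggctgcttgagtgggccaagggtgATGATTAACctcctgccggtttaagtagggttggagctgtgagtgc
Fgb: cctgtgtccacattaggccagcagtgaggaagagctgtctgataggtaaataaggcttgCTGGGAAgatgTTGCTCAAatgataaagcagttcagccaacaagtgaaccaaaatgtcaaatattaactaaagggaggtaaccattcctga
Fgg: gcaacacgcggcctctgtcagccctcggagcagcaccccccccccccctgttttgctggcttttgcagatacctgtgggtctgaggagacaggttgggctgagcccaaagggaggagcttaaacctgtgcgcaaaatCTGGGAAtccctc
CTGGGAA occurs in 9.1% of all upstream windows and in 5 of the 46 member windows, at bases -91 to -85 of Fgb and -13 to -7 of Fgg, counted back from the start. The window of Fga had no match to it. TTCNNNGAA, a STAT-like pattern also searched on both strands, occurs in 7.02% of all windows and in 7 member windows, among them Fga and Fgb upstream of the printed stretches. CTGGGAA and TTCNNNGAA can share bases, and no overlap was removed.

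Of the 7 clade A serpins tested, Serpina12 and Serpina6 fell and Serpina1b rose under long restriction. Serpina12, known as vaspin, is an adipokine of fat that also inhibits a kallikrein. It measured 375, 531, 297 and 329 in CON, and 70.8, 131, 111 and 45.3 in LTCR. The highest LTCR value was below the lowest of any other group, which was 165 in CR8. Serpina12 fell by 1.85 on the log2 scale (SE 0.39, adjusted p = 0.000996), the largest called change among the members, to 0.278 of the control level.

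In CR8 Serpina12 measured 165, 193 and 199 on 3 arrays, all below the CON range, and 891 on CR8 replicate 3. The mean difference from CON was -0.39 (adjusted p = 0.781), and it was 0.08 when the arrays with muscle transcripts were left out and -0.92 without CR8 replicate 3. Long restriction was lower than short by 1.46 (SE 0.39, adjusted p = 0.0133). Without CR8 replicate 3 that difference was -0.93 (adjusted p = 0.0719), and the call was also lost without LTCR replicate 4. Serpina12 measured 504 to 1084 in GLIP (1.01, adjusted p = 0.365), 535 to 1155 in GM, all above CON (0.99, adjusted p = 0.171), and 259 to 1139 in MET (0.44, adjusted p = 0.598). None of these differences was called, and MET also reached below the CON range. The summed level of 4 adipocyte genes overlapped between the groups: it was 1523 to 2151 in LTCR and 1476 to 1831 in CON, with Cidec below the added value in both groups.

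Serpina6 encodes corticosteroid-binding globulin, a serpin that carries glucocorticoids in plasma and inhibits no protease. It measured 13111, 12095, 12546 and 14086 in CON, and 10566, 9351, 8994 and 6293 in LTCR. The groups did not overlap, and Serpina6 fell by 0.58 (SE 0.17, adjusted p = 0.0129), to 0.669 of the control level. A second probe set fell by 0.48 (SE 0.15, adjusted p = 0.0254), also without overlap. In CR8 the first probe set measured 10399 to 13465, and LTCR differed from CR8 by -0.45 (adjusted p = 0.0743).

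Metformin gave the highest Serpina6 levels of the series. MET measured 18721, 16526, 18432 and 17459, above every array of every other group. The difference of 0.46 from CON was not called (adjusted p = 0.121), but was without the 3 arrays with high acute phase transcripts (adjusted p = 0.0474). The second probe set gave 0.31 (adjusted p = 0.273). GM measured 14130, 11231, 8085 and 12334, and lay below MET without overlap (-0.66, SE 0.17, adjusted p = 0.0264). The second probe set gave -0.55 (SE 0.15, adjusted p = 0.0471), with overlap. Without GM replicate 3 the first difference was -0.51 (adjusted p = 0.116). The first call was lost on leaving out any 1 of 5 of the 8 arrays, and the second on any 1 of 6.

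The genes of alpha-1-antitrypsin, the main plasma inhibitor of neutrophil elastase, are near-identical copies whose probes can share signal. Serpina1b measured 43473, 38123, 37630 and 39672 in LTCR and 29166, 35256, 35806 and 33091 in CON, without overlap, and rose by 0.26 (SE 0.07, adjusted p = 0.0138). Under quantile normalization this rise became -0.02 (adjusted p = 0.815), so its direction depends on the scaling. Serpina1c differed by 0.25 (adjusted p = 0.0898) and Serpina1e by 0.17 (adjusted p = 0.0796) in LTCR.

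Serpina10, which inhibits factor X with protein Z, measured 2238, 1792, 2135 and 1719 in LTCR, all below the CON range of 2272 to 3603. The difference was not called (-0.46, adjusted p = 0.199), but was without the 3 arrays with high acute phase transcripts (adjusted p = 0.0331). Serpina3n, an acute phase antichymotrypsin, measured 5839 to 8910 in LTCR and 5756 to 8105 in CON, which overlapped. Its highest value, 18371, was on GM replicate 3.

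Serpinb9, the intracellular inhibitor of granzyme B, made mainly by immune cells, gave low intensities. It measured 164, 225, 84.5 and 141 in LTCR and 285, 301, 231 and 345 in CON, without overlap. It fell by 0.86 (SE 0.21, adjusted p = 0.00348), and no left-out array ended the call (-1.04 to -0.65). The Kupffer cell sums, 2664 to 4095 in LTCR and 4436 to 5472 in CON, were lower in the same arrays, and the 6 T and NK cell genes summed to 401 to 466 in LTCR and 348 to 596 in CON. In CR8, whose Kupffer sums were also low, Serpinb9 measured 161 to 329 (-0.29, adjusted p = 0.649). Serpinb6a, the other clade B serpin tested, measured 201 to 269 in LTCR and 193 to 281 in CON.

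Serpinc1 is antithrombin, the chief inhibitor of thrombin and factor X. It measured 18658, 17879, 18007 and 18540 in MET and 15371, 16111, 15487 and 15400 in CON, and rose by 0.23 without overlap (SE 0.06, adjusted p = 0.0269). The call was lost on leaving out any 1 of 5 of the 8 arrays. In GM it differed by 0.21 (adjusted p = 0.0589) and in LTCR by 0.16 (adjusted p = 0.0559), in both cases with all 4 arrays above all CON arrays.

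Serpind1, heparin cofactor II, another thrombin inhibitor, measured 8961, 8149, 8127 and 7590 in LTCR and 9286, 9591, 9156 and 9435 in CR8. The groups did not overlap, and the difference was small (-0.19, SE 0.06, adjusted p = 0.042); it was lost on leaving out any 1 of 7 of the 8 arrays. Without the arrays with muscle transcripts it was -0.18 (adjusted p = 0.206). Against CON, Serpind1 was not called in LTCR (-0.10, adjusted p = 0.299) or CR8 (0.09, adjusted p = 0.608), but after quantile normalization it was called lower in LTCR (-0.22, adjusted p = 0.00757). Serping1, the C1 inhibitor, measured 8460 to 9502 in LTCR and 9049 to 11425 in CON, with no call. Serpinf1, an antiangiogenic serpin, and Serpinf2, the plasmin inhibitor, passed in no comparison of a pair of groups.

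Of the 5 inter-alpha-trypsin inhibitor heavy chains, which bind hyaluronan in the matrix, Itih2 rose under long restriction and metformin. It measured 19113, 20568, 18116 and 19960 in LTCR, 19952, 17805, 21618 and 19386 in MET, and 15071, 16577, 16562 and 17548 in CON. Neither group overlapped CON, with rises of 0.24 (SE 0.07, adjusted p = 0.0133) and 0.26 (SE 0.07, adjusted p = 0.0319). The metformin call was lost on leaving out any 1 of 6 arrays. Itih5 measured 105 to 155 in MET and 96.3 to 143 in GM, below the CON range of 158 to 217, without a call (-0.45, adjusted p = 0.1, and -0.47, adjusted p = 0.109). Itih1, Itih3 and Itih4 passed in no comparison.

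Kng1, the kininogen gene that yields bradykinin, and Plg, the plasminogen gene, gave high intensities and passed in no comparison. Kng1 measured 17756 to 25121 in LTCR and 19749 to 26449 in CON, a difference of -0.01 (adjusted p = 0.97). The brighter probe set of Plg measured 31303 to 32663 and 26297 to 31472, a difference of 0.13 (adjusted p = 0.276).

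C1d entered by its name alone: it encodes a nuclear protein that works with the RNA exosome and is no complement component. It measured 150, 207, 306 and 171 in LTCR, 239, 227, 162 and 311 in MET, and 549, 389, 478 and 304 in CON. It fell by 0.97 in LTCR (SE 0.20, adjusted p = 0.00087) and by 0.80 in MET (SE 0.20, adjusted p = 0.023), in each case with 1 array inside the CON range. Against CR8, at 298 to 404, LTCR was lower by 0.68 (SE 0.20, adjusted p = 0.0244), with LTCR replicate 3 inside the CR8 range. Without the arrays with muscle transcripts the difference from CR8 was -0.58 (adjusted p = 0.189) and the metformin fall -0.74 (adjusted p = 0.0931).

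Over all probe sets, bright ones were higher than CON in several groups. For LTCR the median change was -0.01 in probe sets with a mean intensity below 1000, 0.01 from 1000 to 5000, 0.13 from 5000 to 15000 and 0.20 above 15000. The same medians were -0.06, 0.01, 0.10 and 0.18 for MET, and -0.08, 0.02, 0.10 and 0.13 for GM. Of the genes called higher, F10 and F12, with means of 3841 and 4770, lay in the range from 1000 to 5000. For GM against MET the medians were -0.02, 0.01, 0.00 and -0.05. Above 15000, 86.4% of the 81 probe sets had a change over 0 in LTCR, 33.3% were called higher there, and 18.5% were called higher in MET. The 9 members in that range had a median of 0.17 in LTCR, 0.19 in MET and 0.20 in GM. The part of this trend in the rises was not tested. Over all comparisons, quantile normalization, which gives all arrays 1 distribution, kept 3 of the 12 higher calls and 17 of the 19 lower calls. Scaling to equal medians kept 11 of the 12 higher calls and 11 of the 19 lower calls.

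Of the 6 rises under long restriction, F10 alone was called after quantile normalization. The split of the 15 calls, 6 higher and 9 lower, became 1 higher and 10 lower; with arrays scaled to equal medians it was 5 higher and 6 lower. F12 (adjusted p = 0.053), F2 (0.0784), C8g (0.117) and Itih2 (0.398) missed the threshold, and all 9 falls kept it, with Serpind1 added. Both rises under metformin were lost (Itih2, adjusted p = 0.223, and Serpinc1, adjusted p = 0.302), so the split of 2 higher and 3 lower became 0 and 3. Scaled to equal medians, the metformin split was 5 higher and 1 lower. In GM, F12 kept its call (0.58, adjusted p = 0.0073), F2 did not (adjusted p = 0.0895), and Fga was added as a fall (-0.50, adjusted p = 0.03965). That left 1 higher and 1 lower, where 1.26% of all probe sets were called. Scaled to equal medians, the GM split of 2 higher and 0 lower became 14 and 0.

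**Figure D3:**
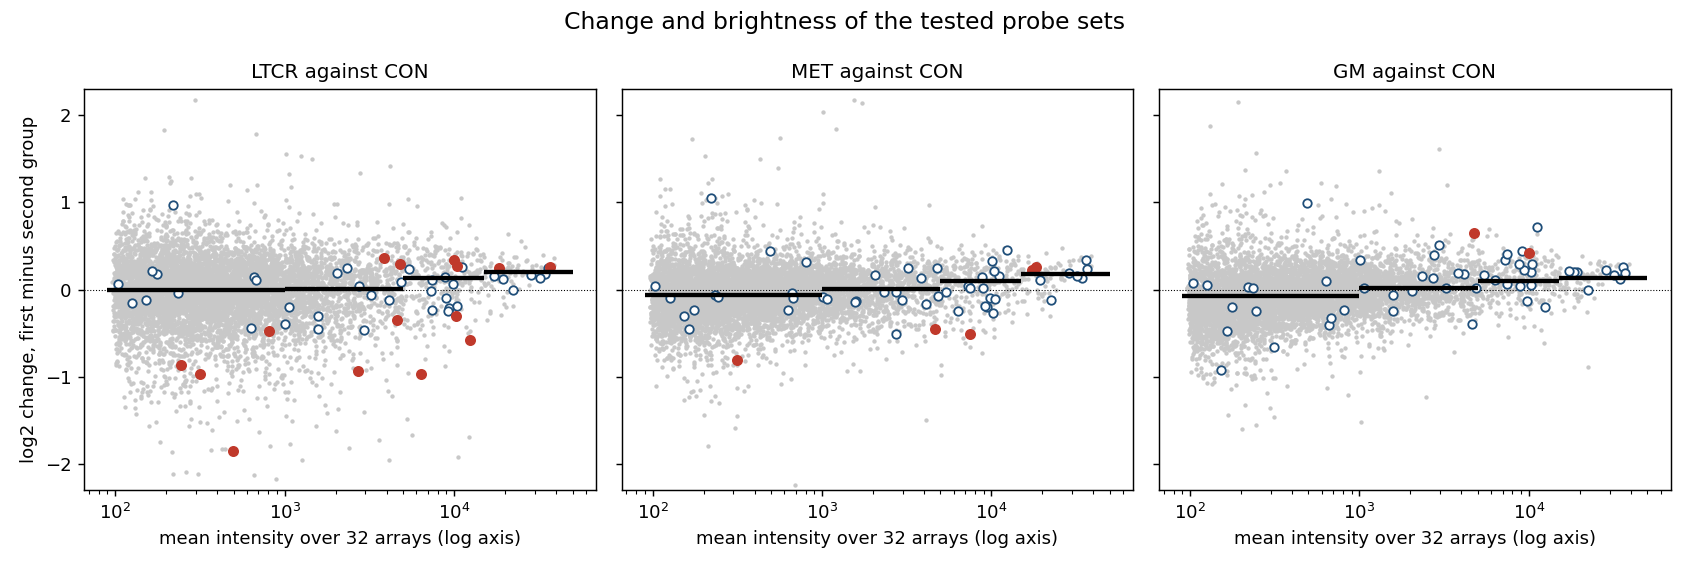
Log2 change against CON (vertical, drawn from -2.3 to 2.3) by mean intensity over the 32 arrays (horizontal, log axis) in LTCR, MET and GM. Grey points are other probe sets, open blue circles members not called, and red circles members called. Black lines give the median of all tested probe sets in 4 intensity ranges and climb from left to right.

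Single mice set some of the widest spreads. A mean of log2 levels over 16 acute phase genes outside the member list, taken relative to each gene's median, was 1.87 in GM replicate 3, 1.23 in SOY replicate 2 and 1.14 in ROS replicate 2. The next highest array was GLIP replicate 1 at 0.44, and the LTCR arrays lay lowest, at -0.64 to -0.46. Itih3, an acute phase member, measured 25731, 18548 and 22851 on those 3 arrays, 16017 on GLIP replicate 1, and 6714 to 11634 on the other arrays.

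GM replicate 3 had the highest value of all 32 arrays for 17 of the 44 member genes, a count not taken over all probe sets. C9 measured 8072 there and 1967, 2499 and 2663 on the other GM arrays, and 5513 on ROS replicate 2 against 2142 to 2593 on the other ROS arrays. Fgb and Fgg were also highest in their groups on these arrays: Fgb measured 11646, 11208 and 10284 on GM replicate 3, ROS replicate 2 and SOY replicate 2, and Fgg 14124, 14400 and 11859. Fga differed: its 3797 on GM replicate 3 and 4754 on ROS replicate 2 were the lowest values of their groups, and its 6393 on SOY replicate 2 was the highest of its group.

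Serpina6 and Serpina12 differed from these genes. Serpina6 was lowest in its group on GM replicate 3 (8085) and SOY replicate 2 (7905), but measured 13523 on ROS replicate 2, the highest there. Serpina12 was highest in its group on GM replicate 3 (1155) and lowest in its group on SOY replicate 2 (354). Of the 31 calls, 26 were also called without these 3 arrays; all 4 of the combination against metformin and the F2 rise in GM were the ones lost. The calls of long restriction against controls then numbered 20.

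**Figure D4:**
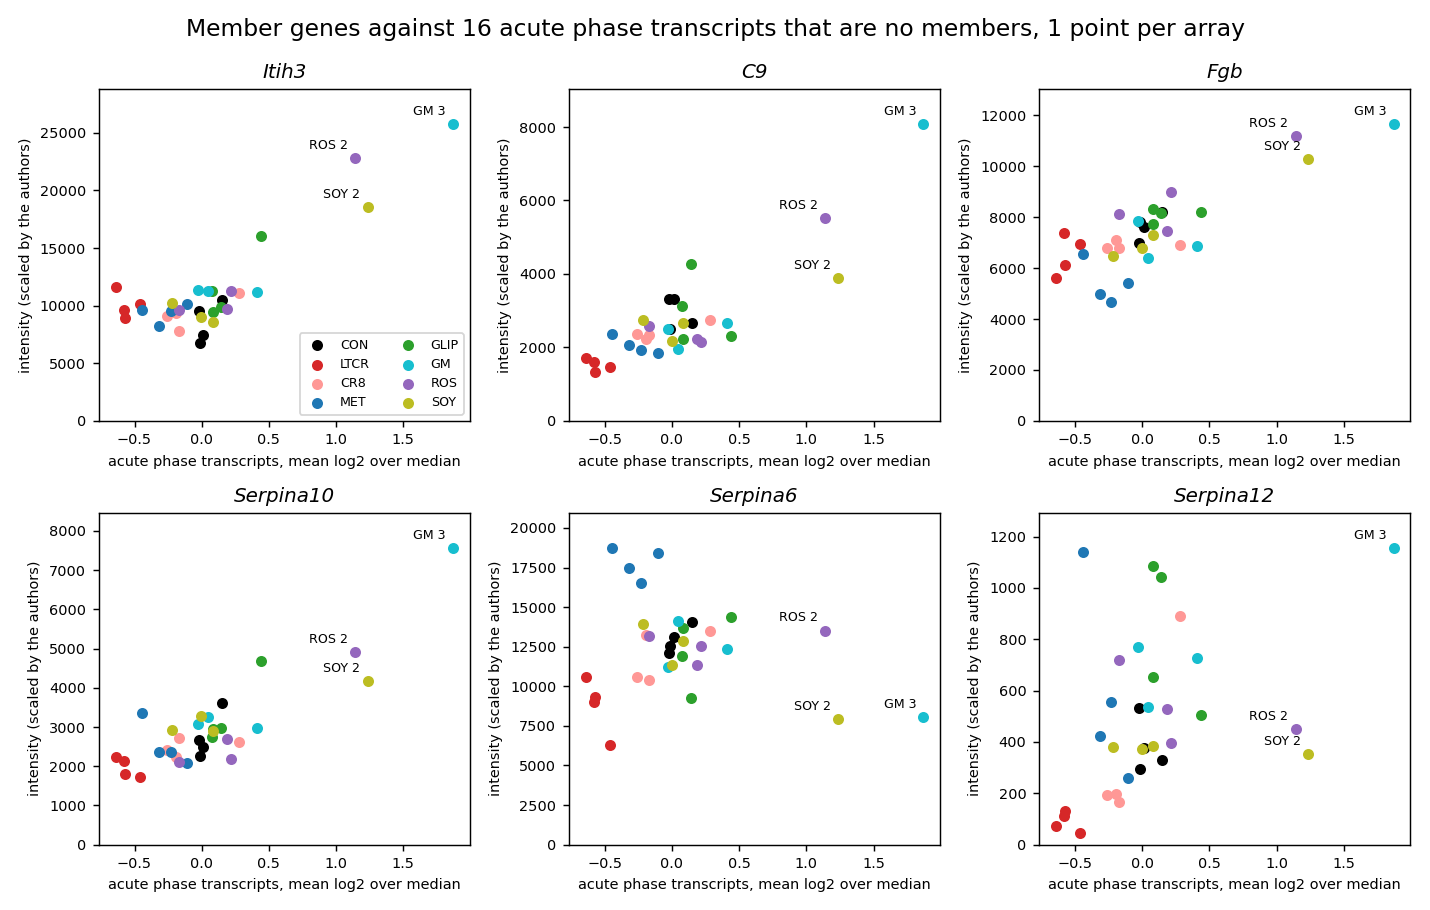
Deposited intensity of Itih3, C9, Fgb, Serpina10, Serpina6 and Serpina12 (vertical) against the mean log2 level of 16 acute phase genes outside the member list (horizontal, relative to the median array), 1 dot per array, coloured by group. GM replicate 3, ROS replicate 2 and SOY replicate 2 stand at 1.14 or higher on the horizontal axis, and all other arrays at 0.44 or lower.

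The rest of the same pathways was read from lists of genes outside the patterns. Over all probe sets, 7.53% rose and 11.8% fell in LTCR, 1.83% and 2.34% in MET, and 0.87% and 0.68% in GM. Of 14 complement genes tested, 1 rose under long restriction, Vtn (vitronectin, which blocks pore formation; 0.33), and none fell. Vtn also rose in GM (0.39). Hc, the gene of C5, measured a mean of 3917 in LTCR and 5282 in CON without overlap, a difference of -0.42 that was not called (adjusted p = 0.0804). Of 14 coagulation and fibrinolysis genes, 2 rose and 2 fell under long restriction, among them Vkorc1, the enzyme that recycles vitamin K for the clotting factors (0.32), and the thrombin receptor F2r (-0.79). Under metformin 2 of them rose, the growth factor activator Hgfac (0.50) and Vkorc1 (0.28), and 1 fell, Hrg (-0.46), a plasma glycoprotein that binds heparin and plasminogen.

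Other secreted protease inhibitors gave 1 rise and 1 fall among 11 tested in LTCR: Ahsg, the calcium-binding fetuin-A, rose by 0.19, and Wfdc2, a secreted WAP-domain protein, fell by 2.34 on the log2 scale. Wfdc2 also fell in ROS (-1.14, adjusted p = 0.0233), where no member and 0.136% of all probe sets were called. In LTCR, 7.53% of all probe sets rose and 11.8% fell, with a median of 0.00 over those tested. Of 16 acute phase genes tested, 2 fell in LTCR, the metallothioneins Mt1 (-1.67) and Mt2 (-2.50), and none rose, with a median of -0.24. Of 12 genes of cytokine signalling and of the transcription factors that read it, 3 rose and 1 fell in LTCR, with a median of 0.23; Hnf4a (0.98) and Cebpa (0.39), factors of hepatocyte transcription, were among the rises, and Il1rn, an interleukin-1 antagonist (-0.86), was the fall. Probe sets with several symbols lay outside the rule: that shared by C4a and C4b fell in LTCR (-0.50, adjusted p = 0.0239), and 2 shared by the Serpina1 genes rose in LTCR (0.28 in each) and in MET (0.34 and 0.27).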

How the data were processed

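Liver RNA of 32 mice was hybridised to 32 Affymetrix MG-U74Av2 arrays, per the labels. The deposited table holds 1 intensity per probe set and array on a linear scale, from 0.1 to 47323.7. Its scaling method is not given in the sources used here; after trimming 2% at each end, the mean of every array was 500.4 to 500.5, and medians were 144.75 to 170.05. Probe sets were named from the platform's annotation: 10833 had 1 symbol, 396 several and 1193 none, and 66 controls were left out. All 68 member symbols matched RefSeq. Depth does not apply to arrays; the number of mice limits the precision.

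A constant of 27, the 20th percentile over the whole table, was added to each intensity before log2 was taken. Probe sets whose mean log2 value lay over that of an intensity of 94.2 (the 40th percentile) were kept, 7357 in all. A single limma model (version 3.58.1, under R 4.3.3, with lmFit and a trended eBayes; 24 residual degrees of freedom and 4.59 prior ones) over the 8 groups gave 10 pairwise comparisons and an F test, with Benjamini-Hochberg adjustment over all probe sets and a threshold of 0.05. Groups came from the sample titles. The p-values rest on the spread between mice within groups, pooled over the 8 groups of 4 mice. The trended eBayes step then adjusted this spread using all probe sets, so it is not that of the compared groups alone. Overlap of groups was read from the deposited intensities. Where a gene had several probe sets, the one with the highest mean stood for it. Tables were made with Python 3.11.15, numpy 2.4.6 and pandas 2.3.3, and the fit was checked on simulated data.

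The members, the role groups, the lists of other pathway genes and of cell type markers, and the tests were chosen with earlier results of these data known. Named genes were the called members and, in each role, those with the smallest F-test p or the highest mean; of the other lists, up to 4 with the smallest F-test p. Alternatives were quantile normalization, equal medians, other added values and filters, a fit to the compared groups alone, the replicate number as a block, each array left out, and the arrays with muscle transcripts left out. Leaving out the 3 arrays with acute phase means over 0.8 was chosen after seeing the data. Upstream sequences came from RefSeq on GRCm38.p6.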

Additional observations from a re-analysis of the deposited data

Results flagged for a closer look

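In 25 of 296 groups of 4 (8.45%), from the 37 named genes, 1 array stood apart from the other 3 beyond Dixon's critical value for the gap over the range, 21 of them at the high end. Over all 44 tested member genes the share was 8.52%, and over all 7357 probe sets 5.96%; chance gives about 1 in 20 groups. GM replicate 3 stood apart in 5 genes: C9 (8072), Itih3 (25731), Itih4 (18473), Mbl1 (1945) and Serpina10 (7561). ROS replicate 2 did so in C9 (5513), F5 (6248) and Itih3 (22851), and SOY replicate 2 in Fga (6393), Itih3 (18548) and Itih4 (13909). These 3 arrays also had the highest means of acute phase transcripts.

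The other high arrays were CON replicate 4 for C2 (1978), CON replicate 2 for Serpinc1 (16111), CR8 replicate 4 for F10 (4014) and Serpinc1 (17815), CR8 replicate 3 for Serpina12 (891), GLIP replicate 1 for F12 (5779) and Serpina10 (4675), GLIP replicate 3 for Serpinb6a (399), MET replicate 1 for Mbl1 (1131), and SOY replicate 4 for F2 (9398). The low arrays were GM replicate 2 for F12 (4931), CR8 replicate 3 for Fgg (7607), CR8 replicate 1 for Mbl1 (807) and LTCR replicate 1 for Serpinf1 (8037).

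The long and the short restriction differed directly, at an adjusted limma p under 0.05, in Serpina12 (-1.46), C4bp (-0.77), C1d (-0.68), Masp1 (-0.38) and Serpind1 (-0.19). The combination and metformin alone differed in Serpina6 (-0.66), Fgb (0.57) and F12 (0.40).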

How the results depend on the processing

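Of the 31 called changes, all kept direction and call when 1, or the 40th percentile, was added before log2, 30 of the 30 still tested did so with the filter at the 60th percentile, 28 under the replicate block, 26 without the 3 acute phase arrays, 22 without a filter, 22 with equal medians, 20 after quantile normalization, 16 without the muscle arrays and 14 when only the compared groups were fitted; 7 kept the call with each of the 32 arrays left out in turn. The causes were not tested. Directions turned in 2 cases: Serpina1b in LTCR under quantile normalization (-0.0201, adjusted p = 0.815) and Serpina12 in CR8, not called, without the muscle arrays (0.0815, adjusted p = 0.977).

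Counts of member calls that left the range of 1.5 times were these. For metformin against controls (5), quantile normalization gave 3 (beside 3.17% of all probe sets), no filter 2 (1.69%) and the stricter filter 8 (6.54%). The compared groups alone gave 1 (0.449%), and no muscle arrays 0 (1.29%). Single left-out arrays of the compared groups gave 0 to 5 (0 to 8 over all 32 arrays). For the combination against controls (2), equal medians gave 14 (5.8%), the stricter filter 5 (2.92%) and the compared groups alone 0 (0.0544%). No muscle arrays gave 1 (0.449%), and single arrays 1 to 2 (1 to 4 over all). Equal medians moved the median of all probe sets from -0.05 to 0.09. For long against short restriction (5), no muscle arrays gave 2 (5.75%) and no acute phase arrays 9 (12.4%). Single arrays gave 2 to 4 (2 to 7 over all). For the combination against metformin (4), quantile normalization gave 2 (2.43%), no filter 2 (1.14%) and the compared groups alone 0 (0.0%). No muscle arrays gave 2 (1.92%), no acute phase arrays 0 (1.07%), and single arrays 0 to 4. The split of 2 higher and 2 lower became 4 and 0 with equal medians. Single arrays gave 9 to 14 for long restriction, from 15 (9 to 18 over all, the highest without GM replicate 3). They gave 0 to 1 for the combination against glipizide, with 1 without GM replicate 2. For the F test (21) they gave 17 to 23. Without the muscle arrays the F test gave 12 (22.2%, beside 19.8% of all probe sets). Elsewhere single arrays gave 0 to 0.

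With the replicate block the counts were 15 for long restriction, 5 for metformin, 2 for the combination, 4 between the restrictions, 3 between the combination and metformin, and 20 for the F test. It ended the calls of Fgb in MET (adjusted p = 0.0552), Serpind1 between the restrictions (0.0589) and the second probe set of Serpina6 between the combination and metformin (0.0501), and added Itih5 in MET (-0.45, adjusted p = 0.0424). Arrays of the same number did not deviate together: the 112 correlations ran from -0.23 to 0.24, 10 of them over 0.1, and 8 arrays correlated best with one of their own number.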
